A study of Mus musculus with 25 samples.

Results

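Tim4+ MHCII high macrophages (pop2) of mouse white adipose tissue were compared with Tim4- CD11c- MHCII high macrophages (pop3) of the same tissue. The comparison held 8 of the 25 libraries of the series, 4 of pop2 and 4 of pop3, chosen by their sort labels and by no measured value. Both populations came from C57BL6 mice fed a high fat diet (HFD, 45% fat) or a control diet (CD, 10% fat), with 2 libraries per population and diet. Each library was made from amplified cDNA of 200 sorted cells, and the tissue had been digested with collagenase II together with flavopiridol, an inhibitor of transcription. The labels give no sex, age, length of diet or number of animals behind a library. The CD libraries of both populations are titled CD-CD, while monocyte libraries on CD are titled CD or CD-CD and entered the fit together. The labels do not explain CD-CD, so diet and whatever else it stands for cannot be told apart here. The p-values rest on the spread between libraries of the same group over all 25, of which 9 are monocytes. That spread may be technical.

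Tim4, encoded by Timd4, is a receptor for phosphatidylserine on dying cells and marks tissue macrophages that persist with little renewal from blood. CCR2, encoded by Ccr2, is the chemokine receptor by which monocytes leave the bone marrow and enter tissue, and it marks macrophages that derive from monocytes. MHC class II molecules show peptides to CD4+ T cells, and CD11c, encoded by Itgax, marks macrophages that gather in fat on a high fat diet. The comparison asks how Tim4+ and Tim4- macrophages differ when both carry high MHCII.

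Total counts, in M reads, were 3.75 and 4.48 M in the HFD and 4.73 and 5.86 M in the CD libraries of pop2, against 7.75 and 8.52 M in the HFD and 5.07 and 5.57 M in the CD libraries of pop3. A floor of 3 counts equalled 0.342 to 0.70 CPM (counts per M reads, with library sizes scaled by TMM factors) and covers counting error only. The pop2 HFD libraries were the shallowest of the 8, with a pop2 CD library next at 4.73 M. Olfactory and vomeronasal receptor genes, which macrophages are not known to use, were at 490 and 686 CPM in pop2 HFD. These genes were at 388 and 398 CPM in pop2 CD, 194 and 328 CPM in pop3 HFD and 422 and 659 CPM in pop3 CD. On this measure pop2 HFD thus overlapped with pop3 CD. The pop2 HFD libraries were also low in genes of low GC content, as shown further on. Between replicate libraries Pearson's r of log2 CPM was 0.815 to 0.861, taken over genes, which are no independent replicates.

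Timd4, the gene of the Tim4 gate, followed the labels. Timd4 (chromosome 11, 46810799 to 46844333, mm10) was read at 88.9 and 102.5 CPM in the HFD and at 496 and 563 CPM in the CD libraries of pop2, against 0.118 and 0.569 CPM in the HFD and 0.534 and 11.9 CPM in the CD libraries of pop3. Every pop2 library was above every pop3 library. The log2 difference was 7.23 (SE 0.95, adjusted p = 4.76e-04, edgeR quasi-likelihood test with Benjamini-Hochberg adjustment), which describes the gate and is no finding. Itgax, the gene of the CD11c gate that pop3 was sorted to lack, was at 1.19 and 2.10 CPM in HFD and 0.349 and 2.87 CPM in CD libraries of pop2, against 24.6 and 43.7 CPM in HFD and 1.13 and 11.2 CPM in CD libraries of pop3 (log2 difference -3.16, SE 0.98, adjusted p = 0.137). Pop3 was thus not free of Itgax on either diet, with the higher values on HFD. Every pop3 library still lay below pop4, the Tim4- CD11c+ macrophages, which were at 180 to 192 CPM.

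Class II genes were read at nearly the same level in both populations, as the matched gate asks. H2-Aa, a class II alpha chain gene, averaged 1420 ± 228 CPM in pop2 and 1437 ± 198 CPM in pop3 (SD, n = 4 each), a log2 difference of -0.02 with a 95% interval of -0.38 to 0.33. For the beta chain gene H2-Ab1 the means were 917 ± 105 CPM in pop2 and 893 ± 38.9 CPM in pop3 (0.03, interval -0.45 to 0.51). Cd74, the invariant chain that guards the peptide groove, was at 1255 ± 112 CPM in pop2 and 1196 ± 50.6 CPM in pop3 (0.07, interval -0.17 to 0.31). H2-Eb1, a further beta chain gene, was at 801 ± 52.4 CPM in pop2 and 816 ± 35.6 CPM in pop3 (-0.03, interval -0.81 to 0.75). All 4 intervals held 0. Reads of near-identical class II genes could have been split between them, since the treatment of such reads is not given in the sources used here.

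**Figure D1:**
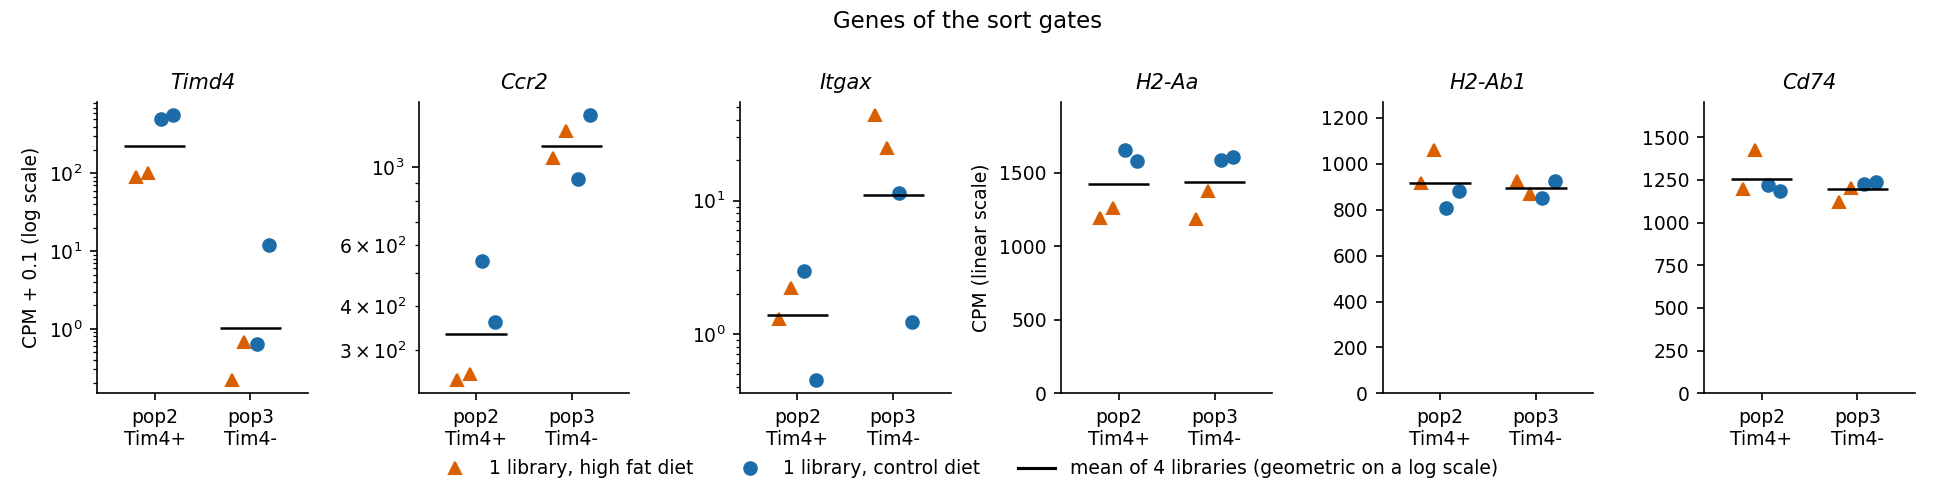
Level in CPM of 6 genes behind the sort gates in each library of pop2 and pop3 (log scale for Timd4, Ccr2 and Itgax with 0.1 added, linear scale for the class II genes; lines are means of 4 libraries, geometric on a log scale). Timd4 separated the populations, Ccr2 was at 246 to 541 CPM in pop2 and 928 to 1412 CPM in pop3, and H2-Aa, H2-Ab1 and Cd74 overlapped.

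Of the 16961 genes tested, 175 (1.03%) passed an adjusted p of 0.05 with both diets pooled, and 2078 (12.3%) had an unadjusted p under 0.05. In pop2, 23 genes (0.136%) were higher and 152 (0.896%) lower. Across all tested genes the median log2 difference was 0.07, and 53.7% of genes had a positive one. The 4 libraries of pop2 did not overlap with the 4 of pop3 for 77 of the 175 genes, 16 higher and 61 lower, beside 3.58% of all tested genes. The count depended on which libraries entered the fit. With the 16 adipose libraries alone 16 of 15439 genes passed. With the 8 libraries alone none of 13813 did in edgeR, where 1026 had an unadjusted p under 0.05, but that fit also took diet as an additive term and so had other means. DESeq2 called 994 genes, 381 higher and 613 lower, among them all 175. With an offset for the GC content of the transcript, 62 genes were higher and 103 lower (37.6% higher), and the median of all genes moved by 0.141. Whichever of the 8 libraries was left out, 49 of the 175 calls remained, 2 higher and 47 lower. The 2 higher ones were Timd4 and Ipmk. All of these refits kept the monocyte libraries. Of the 49 calls, 11 were also made in the 16 adipose libraries alone, and 21 differed between diets.

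Among genes that no gate used, the cytokine gene Il10 separated the populations with little spread within pop2. Il10 (chromosome 1, 131019845 to 131024970) encodes a cytokine that restrains inflammation. It was at 50.0 and 69.4 CPM in the HFD and 58.1 and 63.8 CPM in the CD libraries of pop2, against 0.237 and 0.342 CPM in the HFD and 0.356 and 1.89 CPM in the CD libraries of pop3. The populations did not overlap on either diet, and 3 of the 4 pop3 libraries were at or below the floor. The fitted log2 difference was 6.67 (SE 1.42, adjusted p = 0.0231, edgeR), a value that depends on the prior count because pop3 was so low. The call was lost without any 1 of the 4 pop3 libraries, at an adjusted p of up to 0.128 without pop3 HFD replicate 2, while the log2 difference stayed between 6.28 and 7.37. The call was also lost in the 16 adipose libraries and with the background covariate. Il10 was the 1 member called of the 16 cytokine genes tested, beside 0.136% of all genes called higher. Its mean was 24.5 CPM in pop1, the Tim4+ MHCII low macrophages, and 0.0653 CPM in pop4, the Tim4- CD11c+ ones.

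Cd5l, a secreted scavenger-receptor protein of tissue macrophages, was at 2.10 and 46.4 CPM in HFD and 1.99 and 13.3 CPM in CD libraries of pop2, against 0.118 and 0.455 CPM in HFD and 0.178 and 0.567 CPM in CD libraries of pop3. All pop2 libraries were higher, but they spread widely among themselves. The log2 difference was 5.31 (SE 1.12, adjusted p = 0.0217, edgeR), and the call was lost in 6 of the 8 refits without 1 library (pop2 CD replicate 8, pop2 HFD replicate 2 or any of pop3). Slc16a9, a carrier of the monocarboxylate transporter family, was at 3.57 and 14.5 CPM in HFD and 34.2 and 69.1 CPM in CD libraries of pop2, against 0.569 and 0.947 CPM in HFD and 1.32 and 1.78 CPM in CD libraries of pop3 (log2 difference 4.29, SE 1.05, adjusted p = 0.0487). Zg16, a lectin-like secreted protein, was at 1.40 and 13.1 CPM in HFD and 17.3 and 45.9 CPM in CD libraries of pop2, against 0.118 and 0.228 CPM in HFD and 0 and 0.567 CPM in CD libraries of pop3 (5.99, SE 1.46, adjusted p = 0.0487). Both calls were lost in 7 of the 8 refits: Slc16a9 held only without pop2 HFD replicate 2, and Zg16 only without pop2 HFD replicate 3. Both were also lost with RLE or upper-quartile factors, without a low-count filter and with the background covariate.

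Ipmk, an inositol phosphate kinase, was at 147 and 290 CPM in HFD and 63.4 and 102 CPM in CD libraries of pop2, against 17.98 and 76.0 CPM in HFD and 11.03 and 21.7 CPM in CD libraries of pop3. The lowest pop2 library lay below the highest pop3 library, but within each diet all pop2 libraries were higher. The log2 difference was 2.28 (SE 0.40, adjusted p = 0.00538, edgeR), with an adjusted p of at most 0.0305 with 1 library left out. In the 16 adipose libraries alone the call of Ipmk was lost (adjusted p = 0.101, edgeR). Further genes called higher were Sdhaf1, Mavs and Polg. Sdhaf1, an assembly factor of succinate dehydrogenase, averaged 79.7 ± 52.7 CPM in pop2 and 13.05 ± 8.88 CPM in pop3 (SD, n = 4 each; log2 difference 2.72, adjusted p = 0.0231, edgeR). Mavs, the adaptor by which RNA sensors signal from the mitochondrial surface, averaged 108 ± 44.1 CPM in pop2 and 28.2 ± 16.9 CPM in pop3 (2.09, adjusted p = 0.0231, edgeR). Polg, the mitochondrial DNA polymerase, averaged 121 ± 84.4 CPM in pop2 and 29.8 ± 24.0 CPM in pop3 (2.30, adjusted p = 0.0439, edgeR). Polg overlaps Fanci, a DNA repair gene on the other strand that was also called (2.64, adjusted p = 0.0297, edgeR). Since the use of strand in counting is not given in the sources used here, reads from the short stretch that Polg and Fanci share cannot be told apart. The call of Sdhaf1 was lost in 5 of the 8 refits without 1 library, and those of Mavs, Polg and Fanci in 6 each, pop2 HFD replicate 3 among them every time. Other mitochondrial genes were called lower in pop2, such as Mrpl45, a protein of the mitochondrial ribosome (-3.61, adjusted p = 7.5e-05, edgeR). Of 24 oxidative phosphorylation genes tested none was called higher, although 19 differences were positive, with a median of 0.17 against 0.07 over all genes. Uqcrc2, a subunit of complex III, was called lower (-1.49, adjusted p = 0.00899, edgeR), beside 0.896% of all genes. Its libraries overlapped between the populations, and the call was lost without pop3 HFD replicate 3.

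**Figure D2:**
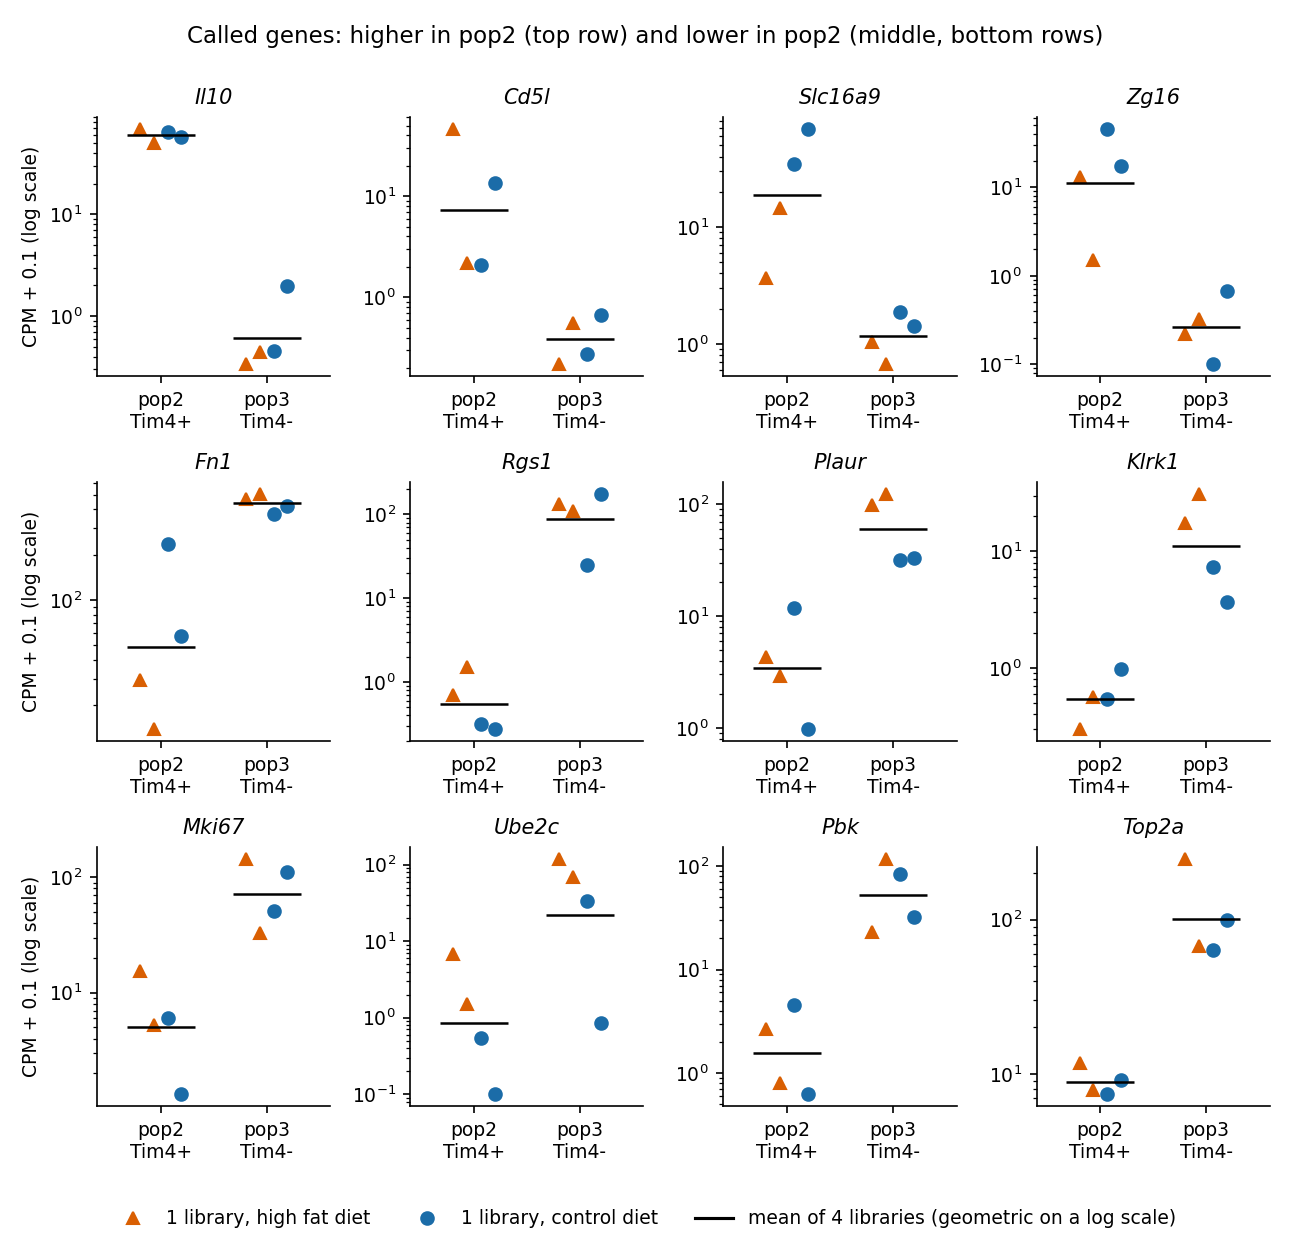
Level in CPM plus 0.1 (log scale) of 4 genes called higher and 8 called lower in pop2, in each library of pop2 and pop3; lines are geometric means of 4 libraries. Il10 was at 50.0 to 69.4 CPM in pop2 and at most 1.89 CPM in pop3, and Rgs1 at no more than 1.40 CPM in pop2 and at least 24.9 CPM in pop3.

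The call with the smallest p was Fn1, lower in pop2. Fn1 (chromosome 1, 71585473 to 71653234) encodes fibronectin, a matrix protein that monocytes also make. It was at 13.8 and 29.2 CPM in HFD and 57.6 and 233 CPM in CD libraries of pop2, against 465 and 508 CPM in HFD and 370 and 423 CPM in CD libraries of pop3. The populations did not overlap on either diet. The log2 difference was -2.97 (SE 0.30, adjusted p = 4.76e-05, edgeR), and it was called in all 8 refits without 1 library and in the 16 adipose libraries alone (adjusted p = 0.0168). Its mean was 425 CPM in pop1 and 1038 CPM in pop4.

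Rgs1 (chromosome 1, 144244669 to 144249104), which shortens signalling from chemokine receptors, was at 0.595 and 1.40 CPM in HFD and 0.175 and 0.221 CPM in CD libraries of pop2, against 109 and 132 CPM in HFD and 24.9 and 177 CPM in CD libraries of pop3. Every pop3 library was far above the floor, and 3 of the 4 pop2 libraries were at or below it. The fitted log2 difference was -7.90 (SE 0.89, adjusted p = 1.75e-04, edgeR), and the call held in each of the 8 refits. Ptger2, a receptor for prostaglandin E2, was at 1.79 and 7.24 CPM in HFD and 1.55 and 2.10 CPM in CD libraries of pop2, against 42.1 and 145 CPM in HFD and 58.9 and 81.2 CPM in CD libraries of pop3 (-4.81, SE 0.79, adjusted p = 0.00315, edgeR). Plaur, the urokinase receptor used in migration, was at 2.80 and 4.17 CPM in HFD and 0.873 and 11.7 CPM in CD libraries of pop2, against 98.9 and 124 CPM in HFD and 31.9 and 32.9 CPM in CD libraries of pop3 (-3.69, SE 0.58, adjusted p = 0.00239, edgeR). Ptger2 and Plaur did not overlap, and both calls held without each of the 8 libraries in turn. In the 16 adipose libraries alone both were lost (adjusted p = 0.0713 for Ptger2 and 0.0907 for Plaur, edgeR).

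Of the 16 integrin genes tested, Itgav alone was called, beside 0.896% of all genes called lower. Itgav, the integrin chain that takes up dying cells and activates TGF-beta, was at 10.3 and 39.7 CPM in HFD and 24.97 and 70.6 CPM in CD libraries of pop2, against 71.8 and 180 CPM in HFD and 196 and 269 CPM in CD libraries of pop3 (-2.31, SE 0.54, adjusted p = 0.0416, edgeR). Its call was lost without pop2 CD replicate 8, pop2 HFD replicate 2, pop3 CD replicate 8 or pop3 HFD replicate 3 (adjusted p up to 0.144). It was also lost with RLE or upper-quartile factors, the background covariate and the GC offset (adjusted p = 0.0812, edgeR). Alcam, a cell adhesion molecule, averaged 45.4 ± 43.2 CPM in pop2 and 333 ± 63.9 CPM in pop3 (SD, n = 4 each; -2.99, adjusted p = 0.0131, edgeR). Cd52, a small surface glycoprotein of leukocytes, was at 57.9 and 73.2 CPM in HFD and 187 and 204 CPM in CD libraries of pop2, against 285 and 300 CPM in HFD and 273 and 303 CPM in CD libraries of pop3 (-1.36, SE 0.24, adjusted p = 0.00538, edgeR). Lyz1, a lysozyme gene nearly identical to Lyz2 and so uncertain, averaged 106 ± 48.8 CPM in pop2 and 366 ± 117 CPM in pop3 (-1.76, adjusted p = 0.0129, edgeR). The call of Alcam was lost without pop2 CD replicate 7 or pop2 HFD replicate 3, and that of Lyz1 without pop2 CD replicate 8 or pop2 HFD replicate 3.

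Klrk1 and Klra2, receptors better known from natural killer cells, were near the floor in pop2. Klrk1, which encodes NKG2D, was at 0.198 and 0.467 CPM in HFD and 0.442 and 0.873 CPM in CD libraries of pop2, against 17.4 and 31.2 CPM in HFD and 3.59 and 7.29 CPM in CD libraries of pop3 (-4.57, SE 0.63, adjusted p = 6.26e-04, edgeR). Klra2, of the Ly49 family whose members share sequence, averaged 0.262 ± 0.246 CPM in pop2 and 14.3 ± 17.4 CPM in pop3 (-5.45, adjusted p = 7.54e-04, edgeR). Of 27 C-type and killer lectin-like receptor genes tested, a list without Klra2, Klrk1 alone was called, beside 0.896% of all genes called lower. In that list 16 differences were positive and the median was 0.10. For 5 members all pop2 libraries were above pop3, beside 1.93% of all genes, and for 1 all were below, beside 1.66%. The 10 NK cell markers of the list, of which Gzma and Nkg7 were below 1 CPM in all 8 libraries, summed to 3.53 to 13.3 CPM in pop2 and 4.73 to 24.8 CPM in pop3, and none of the 8 tested was called. The part of NK cells in the killer receptor result was not tested.

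Of 29 growth factor genes tested, Gdf3 alone was called, beside 0.896% of all genes called lower. Gdf3, a ligand of the TGF-beta family made by macrophages, was at 0.70 and 0.794 CPM in HFD and 1.99 and 4.71 CPM in CD libraries of pop2, against 23.1 and 79.0 CPM in HFD and 39.3 and 66.9 CPM in CD libraries of pop3 (-5.02, SE 1.13, adjusted p = 0.0297, edgeR). The populations did not overlap. The call was lost in 6 of the 8 refits, without any pop2 library, pop3 CD replicate 7 or pop3 HFD replicate 2. Pdgfc, a platelet-derived growth factor of adipose macrophages, averaged 260 ± 77.9 CPM in pop2 and 128 ± 57.4 CPM in pop3 (SD, n = 4 each; 1.02, SE 0.71, adjusted p = 0.62, edgeR). Fgf9, a fibroblast growth factor, averaged 27.1 CPM in pop2 and 1.39 CPM in pop3 (4.59, adjusted p = 0.056, edgeR).

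Of 50 proliferation genes, all tested, 6 were called lower in pop2 and none higher, beside 0.896% of all genes called lower. Their median log2 difference was -1.87, against 0.07 over all genes tested, and 47 of the 50 were negative. By diet their median was -2.48 in HFD and -1.21 in CD, against 0.215 in HFD and -0.0825 in CD over all genes. For 11 of them every pop2 library lay below every pop3 library, beside 1.66% of all genes. Summed over the 50 genes the level was 836 and 1063 CPM in HFD and 723 and 850 CPM in CD libraries of pop2, against 2365 and 3118 CPM in HFD and 1302 and 1836 CPM in CD libraries of pop3. In bulk libraries fewer cells in division and less of these RNAs per cell cannot be told apart.

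Mki67 (chromosome 7, 135689788 to 135716379), the gene of the Ki-67 antigen found in cycling cells, was at 5.14 and 15.3 CPM in HFD and 1.22 and 5.96 CPM in CD libraries of pop2, against 33.0 and 145 CPM in HFD and 50.9 and 110 CPM in CD libraries of pop3. The populations did not overlap. The log2 difference was -3.81 (SE 0.68, adjusted p = 0.00542, edgeR), and the call held without each of the 8 libraries in turn. In the 16 adipose libraries alone it was lost (adjusted p = 0.0713, edgeR). Top2a, the topoisomerase that untangles chromosomes, was at 7.70 and 11.7 CPM in HFD and 7.29 and 9.08 CPM in CD libraries of pop2, against 67.9 and 249.0 CPM in HFD and 63.5 and 99.6 CPM in CD libraries of pop3 (-3.67, SE 0.87, adjusted p = 0.0433, edgeR). Pbk, a kinase of mitosis, was at 0.70 and 2.58 CPM in HFD and 0.524 and 4.42 CPM in CD libraries of pop2, against 23.1 and 118 CPM in HFD and 32.1 and 84.7 CPM in CD libraries of pop3 (-4.99, SE 1.01, adjusted p = 0.0196, edgeR). Neither Top2a nor Pbk overlapped between the populations.

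Ube2c, an enzyme that tags mitotic proteins for destruction, was at 1.40 and 6.75 CPM in HFD and 0 and 0.442 CPM in CD libraries of pop2, against 68.1 and 120 CPM in HFD and 0.756 and 33.6 CPM in CD libraries of pop3 (-5.40, SE 1.05, adjusted p = 0.0123, edgeR). A pop3 CD library was near the floor, so Ube2c overlapped. Tcf19 was at 0.794 and 2.33 CPM in HFD and 0 in both CD libraries of pop2, against 32.9 and 57.9 CPM in HFD and 3.20 and 5.10 CPM in CD libraries of pop3 (-6.36, SE 1.44, adjusted p = 0.0338, edgeR). Esco2, which joins sister chromatids, averaged 0.56 ± 0.55 CPM in pop2 and 24.9 ± 21.0 CPM in pop3 (SD, n = 4 each; -5.08, adjusted p = 0.0487, edgeR). In pop2, Ube2c and Tcf19 on CD were below the floor, and Esco2 was on average near it. The fitted log2 differences of Ube2c, Tcf19 and Esco2 thus depend on the prior count. Leaving out 1 library, the number of proliferation genes called lower ran from 1 to 6, with 1 left without pop2 CD replicate 8 and 1 without pop2 HFD replicate 3. Singly, the call of Pbk was lost without pop2 CD replicate 8, pop2 HFD replicate 3 or pop3 HFD replicate 3, and that of Ube2c without pop2 CD replicate 8, pop2 HFD replicate 3 or pop3 CD replicate 7. Those of Tcf19 and Top2a were lost in 6 of the 8 refits, any pop2 library among them, and that of Esco2 in 7. The number of proliferation genes called lower was 2 in the 16 adipose libraries alone, 0 in the 8 libraries alone, 0 on CD alone, 1 on HFD alone, 3 with the background covariate and 14 in DESeq2. With the GC offset it was 4, and the calls of Top2a (adjusted p = 0.0627, edgeR) and Esco2 (adjusted p = 0.0687, edgeR) were lost, as they were with RLE or upper-quartile factors.

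Promoters of cell cycle genes often carry CCAAT boxes, bound by NF-Y, and CHR elements, bound by complexes that hold these genes silent outside the cycle. Of the 6 called genes, 4 had an entry in the promoter set used here, which was drawn from RefSeq (GRCm38.p6). Their 200 bases before the start are shown because these genes were called lower together. Capitals mark CCAAT or TTTGAA on either strand, and in Ube2c CCAAT on both strands overlaps. They lie at chr7:135716380-135716579 on the minus strand for Mki67, at chr2:164769729-164769928 on the plus strand for Ube2c, at chr17:35516825-35517024 on the minus strand for Tcf19 and at chr11:99024190-99024389 on the minus strand for Top2a.
Mki67: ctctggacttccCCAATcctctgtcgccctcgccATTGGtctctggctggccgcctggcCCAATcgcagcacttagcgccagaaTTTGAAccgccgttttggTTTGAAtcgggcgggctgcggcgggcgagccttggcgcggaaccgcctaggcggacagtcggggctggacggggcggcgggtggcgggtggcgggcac
Ube2c: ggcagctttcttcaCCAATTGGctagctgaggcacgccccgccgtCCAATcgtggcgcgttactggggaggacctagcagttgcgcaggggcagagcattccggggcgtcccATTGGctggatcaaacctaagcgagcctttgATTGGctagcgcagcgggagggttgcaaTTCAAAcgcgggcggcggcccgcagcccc
Tcf19: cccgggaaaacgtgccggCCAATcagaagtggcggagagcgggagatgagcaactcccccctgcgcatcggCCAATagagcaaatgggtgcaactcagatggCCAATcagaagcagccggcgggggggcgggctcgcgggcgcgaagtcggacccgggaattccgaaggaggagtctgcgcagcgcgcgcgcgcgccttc
Top2a: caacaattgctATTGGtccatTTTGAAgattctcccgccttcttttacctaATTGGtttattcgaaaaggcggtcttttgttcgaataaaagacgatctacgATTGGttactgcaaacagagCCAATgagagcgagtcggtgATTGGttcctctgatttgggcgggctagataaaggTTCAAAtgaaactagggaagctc

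CCAAT was in the window of 4 of these 4 genes, of 82.5% of the 40 proliferation genes with an entry and of 31.9% of the 12797 tested genes with one. TTTGAA was in 3 of the 4, in 25% of the proliferation genes and in 8.55% of the tested genes, with Tcf19 the gene that lacks it. Both stood together in 3 of the 4, in 25% of the proliferation genes and in 2.85% of the tested genes. These matches describe letters and are not sites.

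Markers of resident macrophages leaned towards pop2, but 1 passed the test. Of 25 tested, 24 had a positive log2 difference, with a median of 0.67 against 0.07 over all genes, and only Cd5l was called, beside 0.136% of all genes called higher. For 8 of the 25 every pop2 library was above every pop3 library, beside 1.93% of all genes. Summed, they were at 12580 and 12870 CPM in HFD and 14570 and 14730 CPM in CD libraries of pop2, against 8420 and 9364 CPM in HFD and 10060 and 11620 CPM in CD libraries of pop3. The C-type lectin gene Cd209b averaged 541 ± 156 CPM in pop2 and 170 ± 77.4 CPM in pop3 (SD, n = 4 each; 1.64, SE 0.65, adjusted p = 0.279, edgeR). Its neighbour Cd209f averaged 593 ± 58.2 CPM in pop2 and 303 ± 64.9 CPM in pop3 (0.99, SE 0.34, adjusted p = 0.192, edgeR). Cd163, the haemoglobin scavenger receptor, averaged 607 ± 72.9 CPM in pop2 and 362 ± 79.4 CPM in pop3 (0.75, SE 0.72, adjusted p = 0.748, edgeR). The shared identity gene Csf1r, the receptor for macrophage colony-stimulating factor, averaged 592 ± 108 CPM in pop2 and 498 ± 84.1 CPM in pop3 (0.25, SE 0.12, adjusted p = 0.40, edgeR).

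Monocyte markers leaned the other way, more so on HFD. Ccr2 (chromosome 9, 124102183 to 124109140) was at 246 and 255 CPM in HFD and 360 and 541 CPM in CD libraries of pop2, against 1062 and 1276 CPM in HFD and 928 and 1412 CPM in CD libraries of pop3. The populations did not overlap, yet the difference of -1.80 (SE 0.51) did not pass (adjusted p = 0.0948, edgeR). Its mean was 28.3 CPM in pop1 and 1522 CPM in pop4, so pop2 lay between the other Tim4+ population and pop3. Of 22 monocyte genes tested, Fn1 alone was called, beside 0.896% of all genes called lower. The mean of Fn1 in pop1, also Tim4+, lay within the range of pop3, as given above. Of the 22, 16 were negative and 6 positive, and the median was -0.95 (-1.45 in HFD and -0.256 in CD). Over all genes the median was 0.215 in HFD and -0.0825 in CD. For 2 of them, Ccr2 and Fn1, every pop2 library lay below every pop3 library, beside 1.66% of all genes. The list, with Ccr2 and Fn1 in it, summed to 787 to 1161 CPM in pop2 and 1960 to 2620 CPM in pop3. S100a9 and Ly6i were below 1 CPM in all 8 libraries. The part of monocytes in these differences was not tested.

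Few genes of other macrophage programmes were called. For the counts on HFD alone given below, 1.89% of all genes were called lower on HFD. Of 17 class II presentation genes none was called with both diets pooled and 1 was called lower on HFD alone. Of the 17, 12 were negative, 2 had every pop2 library below every pop3 library (1.66% of all genes), the median was -0.09, and they summed to 5732 to 6827 CPM in pop2 and 6177 to 6896 CPM in pop3. Of 24 genes of lipid-associated macrophages none was called with both diets pooled and 2 were called lower on HFD alone. Their median was -0.05, and 3 had all pop2 libraries below pop3 (1.66% of all genes) against 1 with all above (1.93%). Lpl, lipoprotein lipase, averaged 468 ± 67.2 CPM in pop2 and 830 ± 155 CPM in pop3 without overlap (SD, n = 4 each; -0.81, SE 0.21, adjusted p = 0.070, edgeR). Of 20 complement genes none was called with both diets pooled and 1 was called lower on HFD alone, while 4 had all pop2 libraries on top, beside 1.93% of all genes. Among these C6, of the membrane attack complex, averaged 58.0 ± 30.7 CPM in pop2 and 6.10 ± 9.84 CPM in pop3 (3.78, SE 1.11, adjusted p = 0.109, edgeR). Of 20 iron and heme genes Slc11a2, the iron transporter DMT1, was called lower, beside 0.896% of all genes, at 2.18 and 3.27 CPM in HFD and 16.6 and 66.7 CPM in CD libraries of pop2, against 59.0 and 69.6 CPM in HFD and 47.3 and 51.6 CPM in CD libraries of pop3 (-2.40, SE 0.57, adjusted p = 0.0433, edgeR). Its low values were those of pop2 HFD, and the call was lost in 7 of the 8 refits, holding without pop2 CD replicate 7. It was also lost with RLE or upper-quartile factors, without a low-count filter, with the background covariate and with the GC offset (adjusted p = 0.0585, edgeR).

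**Figure D3:**
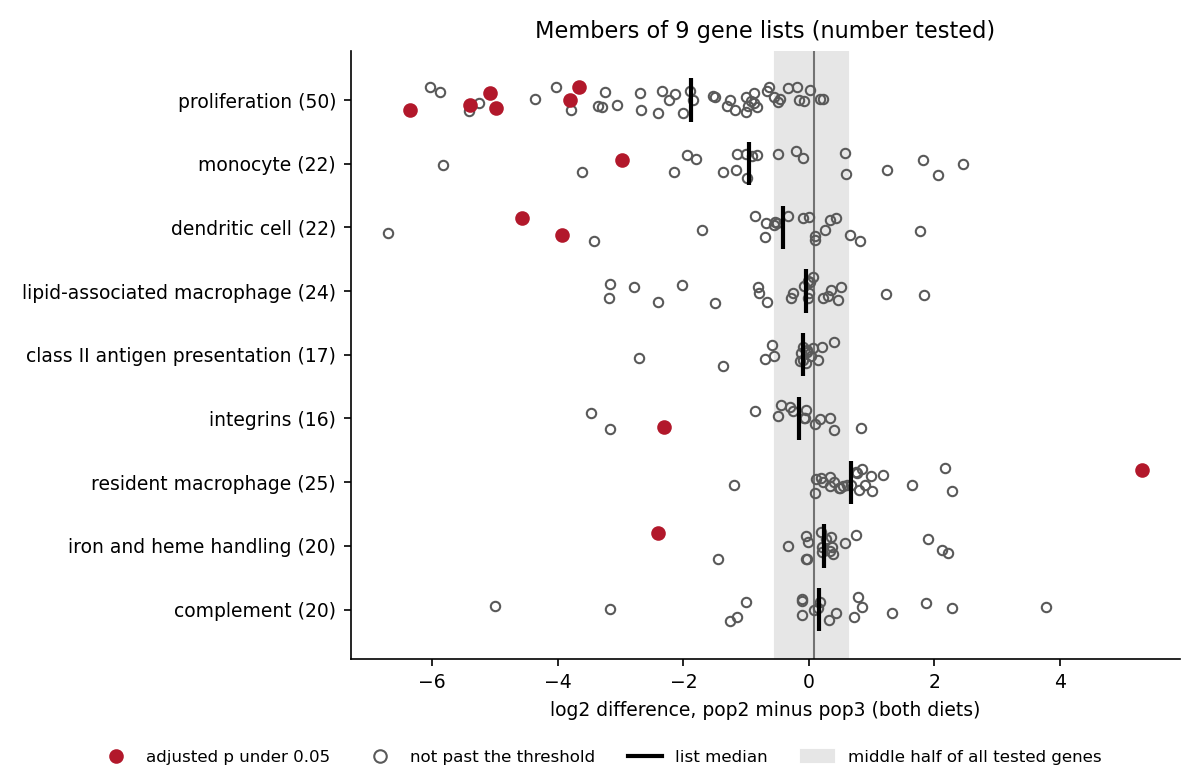
Log2 difference between pop2 and pop3 (both diets) of each tested member of 9 gene lists; filled points passed an adjusted p of 0.05, thick bars are list medians and the grey band is the interquartile range of all tested genes. The proliferation median was -1.87, the monocyte median -0.95 and the resident macrophage median 0.67, against 0.07 over all genes.

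Of 22 dendritic cell genes tested, Klrk1 and Dpp4 were called lower, beside 0.896% of all genes, Dpp4 in libraries that overlapped (-3.93, SE 0.83, adjusted p = 0.0205, edgeR). The list summed to 1360 to 2361 CPM in pop2 and 1500 to 2061 CPM in pop3, with Fcer1a below 1 CPM in all 8 libraries. Markers of other cells were present in both populations. Red cell markers summed to 15.0 to 676 CPM in pop2 and 5.21 to 349 CPM in pop3, all 9 tested were positive, and Alas2, the heme synthesis enzyme of red cell precursors, was called higher, beside 0.136% of all genes (4.95, SE 1.10, adjusted p = 0.0282, edgeR). The calls of Dpp4 and Alas2 were each lost in 5 of the 8 refits without 1 library. Stromal markers summed to 383 to 540 CPM in pop2 and 278 to 1725 CPM in pop3, adipocyte markers to 242 to 753 CPM in pop2 and 328 to 688 CPM in pop3, and endothelial markers to 13.3 to 62.6 CPM in pop2 and 37.9 to 119 CPM in pop3. B cell markers summed to 3.97 to 53.6 CPM in pop2 and 57.3 to 133 CPM in pop3, without overlap, and none of the 8 tested was called. T cell markers summed to 15.7 to 54.8 CPM in pop2 and 16.3 to 58.9 CPM in pop3. The part of these cells in the results was not tested.

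The difference between the populations was counted in far more genes on the high fat diet. With HFD libraries alone 340 genes (2.00%) were called, 19 higher (0.112%) and 321 lower (1.89%), and with CD libraries alone 9 (0.0531%), 2 higher (0.0118%) and 7 lower (0.0413%). The difference itself varied with diet for 160 genes (0.943%), with a more negative value on HFD for 142 (0.837%) and a more positive one for 18 (0.106%). Of the 175 genes called with both diets pooled, 159 had the same sign on both diets and 39 differed between diets, 37 of these lower in pop2. Fn1 differed by -4.50 on HFD and -1.45 on CD, a change of -3.05 (adjusted p = 0.0143, edgeR). Rgs1 differed by -6.91 on HFD and -8.89 on CD, a change of 1.98 (adjusted p = 0.611). Il10 differed by 7.60 on HFD and 5.75 on CD (adjusted p = 0.757), and Mki67 by -3.12 on HFD and -4.49 on CD (adjusted p = 0.649).

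Dpm2, a subunit of the enzyme that makes dolichol phosphate mannose, had the smallest p for a dependence on diet. It was at 3.04 and 4.17 CPM in HFD and 174 and 198 CPM in CD libraries of pop2, against 57.0 and 120 CPM in HFD and 111 and 144 CPM in CD libraries of pop3. The pop2 HFD libraries alone were low, and the change was -5.15 (adjusted p = 1.32e-04, edgeR). Cytip, a regulator of leukocyte adhesion, was at 2.58 and 3.50 CPM in HFD and 22.1 and 81.5 CPM in CD libraries of pop2, against 188 and 213 CPM in HFD and 81.0 and 118 CPM in CD libraries of pop3 (change -5.11, adjusted p = 0.00487, edgeR). In the other direction Nmrk1, a nicotinamide riboside kinase, was at 1.40 and 1.98 CPM in HFD and 1.32 and 1.57 CPM in CD libraries of pop2, against 0.114 and 0.355 CPM in HFD and 45.0 and 45.7 CPM in CD libraries of pop3 (change 7.72, adjusted p = 0.00562, edgeR). For Nmrk1 it was pop3 that differed between the diets. The number of genes with a dependence on diet was 2 in the 16 adipose libraries alone, 16 with background reads as a covariate and 697 in DESeq2.

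**Figure D4:**
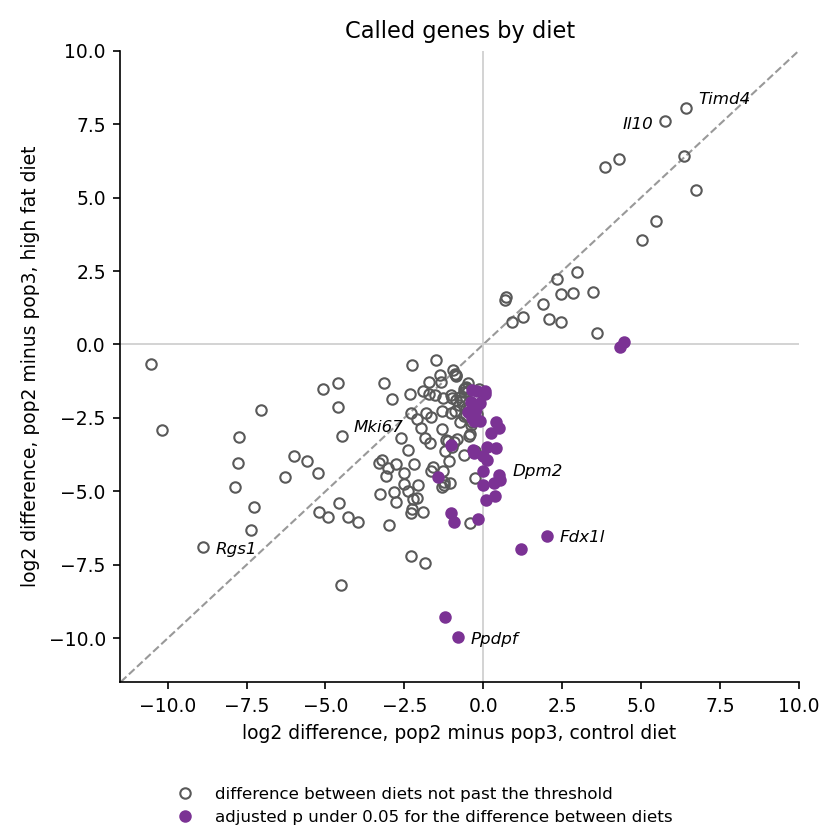
Log2 difference between pop2 and pop3 on the high fat diet (vertical) against that on the control diet (horizontal) for the 175 called genes; filled points differed between diets at an adjusted p of 0.05 and the dashed line marks equal values. Of the 39 filled points 37 belong to genes lower in pop2.

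The difference on HFD varied with the GC content of the gene. Among genes with a mean of at least 10 CPM, split into 4 bins of 2325 genes by the GC content of their transcript, the median log2 difference on HFD was -0.471 in the lowest bin, -0.314 and -0.0725 in the next ones and 0.0829 in the highest. On CD the medians were 0.0492, 0.111, 0.0629 and 0.0598. Genes called lower numbered 61, 35, 27 and 17 from the lowest to the highest bin, or 2.62%, 1.51%, 1.16% and 0.731%. In the lowest bin the libraries deviated by -0.559 and -0.34 in HFD and 0.312 and 0.316 in CD of pop2, against -0.127 and 0.201 in HFD and 0.286 and 0.309 in CD of pop3. With the GC offset 125 of the 175 calls remained and the genes with a dependence on diet numbered 75. The part of library quality in the HFD counts was not tested beyond these refits.

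**Figure D5:**
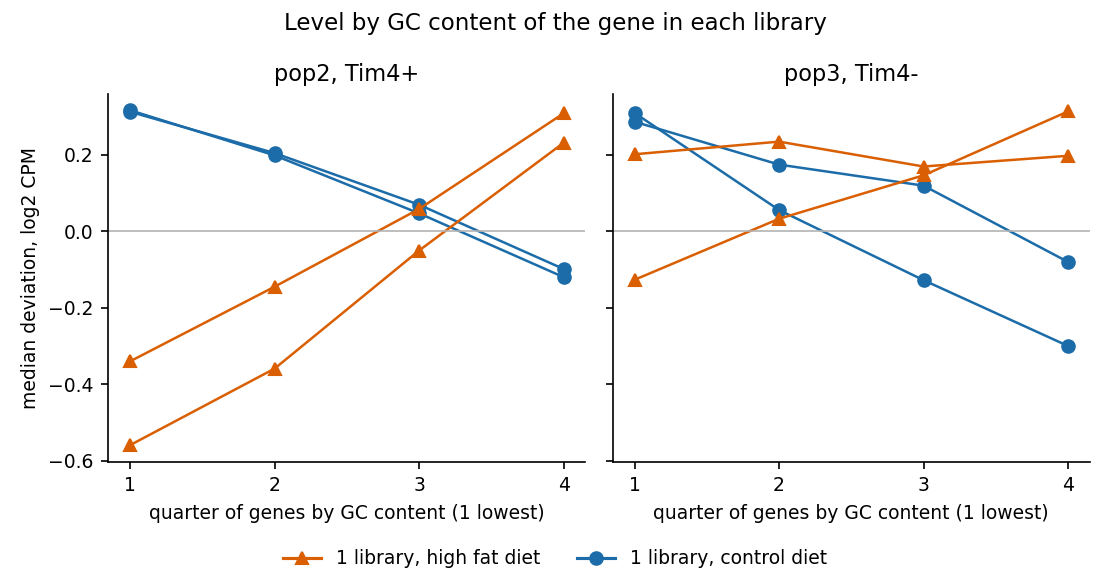
Median deviation of log2 CPM from the mean over the 8 libraries, by bin of genes on GC content (1 lowest), for each library of pop2 and pop3. In the lowest bin the pop2 HFD libraries sit at -0.559 and -0.34, below the other 6.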

How the data were processed

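RNA was sequenced from 25 libraries of 200 sorted cells each. The authors deposited 1 table of raw read counts per RefSeq gene model (24537 models), aligned with STAR 2.5.3a to mm10 and counted with HOMER, per the submitters' processing notes. The use of strand, the removal of duplicates and the handling of multi-mapping reads are not given in the sources used here, so near-identical and overlapping genes are uncertain. Libraries were amplified by PCR without molecular identifiers, and floors cover counting error only.

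Counts were tested with edgeR 4.0.16 (R 4.3.3; TMM, filterByExpr by group, robust quasi-likelihood fit and F test) on all 25 libraries as 10 population and diet means, with 15 residual degrees of freedom (common BCV, the biological coefficient of variation, 0.749). The contrast averages the CD and HFD differences of pop2 and pop3, with Benjamini-Hochberg adjustment over 16961 genes. SE is the log2 difference over the root of F. CPM are counts over TMM-scaled library sizes. The code was tested on simulated data. Alternatives were RLE and upper-quartile factors, other low-count filters, fewer libraries, a replicate block, a covariate for olfactory and vomeronasal receptor reads (1463 genes), each diet alone, each library left out, DESeq2 1.42.0 and, chosen after seeing the data, a GC offset (GENCODE M21 transcripts matched by accession for 97.3% of genes). Promoters came from RefSeq, GRCm38.p6.

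The members and the 42 gene lists were chosen with earlier results of these data known. Named genes are the gate genes with Csf1r and Pdgfc, the 12 higher and 12 lower with the largest difference among called genes with a mean of at least 10 CPM and no overlap, up to 4 called members per list (or the 2 most abundant where none was called), and the 5 genes in each direction with the smallest p for a dependence on diet. Chosen after their values were seen were Ipmk, Mrpl45, Plaur, Alcam, Cd52, Lyz1, Cytip, Top2a, Esco2, Fgf9, C6, Lpl, Cd209b, Cd209f and Cd163.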

Additional observations from a re-analysis of the deposited data

Results flagged for a closer look

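Among 156 groups of 4 libraries examined, 14 (8.97%) had a library far from the others by Dixon's criterion, each time the highest. The criterion flags about 1 in 20 only for normally distributed values of the same group. These are CPM on a linear scale from 2 diets, so the share cannot be compared with that rate. In pop2, the HFD replicate 3 library was far above the rest for Ptger2 (7.24 CPM), Polg (247.7 CPM), Galnt9 (8.64 CPM) and Cd74 (1422 CPM), the CD replicate 7 library for Bhlhe40 (8.39 CPM) and the CD replicate 8 library for Alcam (109.6 CPM). In pop3, the CD replicate 8 library was far above the rest for Timd4 (11.9 CPM), Stk26 (85.95 CPM), Il10 (1.89 CPM) and Fgf9 (3.97 CPM). The pop3 HFD replicate 3 library was far above the rest for Apoa1bp (115.3 CPM), C6 (20.8 CPM) and Ipmk (76.0 CPM), and the pop3 CD replicate 7 library for Galnt9 (7.83 CPM).

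The difference between pop2 and pop3 depended on diet (edgeR, adjusted p under 0.05 for HFD minus CD) for 13 of the genes examined. It was more negative on HFD for Fn1 (by -3.05 on the log2 scale), Dpm2 (-5.15), Napsa (-5.08), Apoa1bp (-5.53), Ppdpf (-9.17, with pop2 HFD at 0 in both libraries, so a fitted value only), Fdx1l (-8.54), Ctbs (-5.98) and Cytip (-5.11). It was more positive on HFD for Rgs14 (3.35), Tmem38b (4.54), Gcc1 (5.99), Galnt9 (5.16) and Nmrk1 (7.72).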

How the results depend on the processing

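Against 23 genes higher, 152 lower and 160 with a dependence on diet, the counts moved by over 1.5 times as follows. Higher genes numbered 12 without a low-count filter, 1 in the 16 adipose libraries, 0 in the 8 libraries with diet as a covariate, 10 with the background covariate, 2 on CD alone, 62 with the GC offset and 381 in DESeq2. Lower genes numbered 15 in the 16 adipose libraries, 0 in the 8 libraries, 93 with the background covariate, 7 on CD alone, 321 on HFD alone and 613 in DESeq2. Genes with a dependence on diet numbered 87 with RLE factors, 69 with upper-quartile factors, 2 in the 16 adipose libraries, 16 with the background covariate, 75 with the GC offset and 697 in DESeq2. The cause was not tested. The additive fit of 8 libraries gives no dependence on diet. Without 1 library the counts ran from 8 (without pop3 HFD replicate 2) to 42 (without pop3 CD replicate 7) higher, from 95 (without pop3 HFD replicate 3) to 341 (without pop2 HFD replicate 2) lower, and from 74 to 368 with a dependence on diet (the same libraries). Higher genes also numbered 9 without pop3 CD replicate 8, 10 without pop2 CD replicate 8, 12 without pop2 CD replicate 7 or pop3 HFD replicate 3 and 37 without pop2 HFD replicate 2. Genes with a dependence on diet numbered 103 without pop2 CD replicate 8 and 76 without pop3 CD replicate 8.

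With the replicate block 2 genes were higher, 28 lower, 4 depended on diet and 1 proliferation gene was lower. The titles of pop2 and pop3 libraries carry the same numbers, but the labels do not say whether a number stands for the same animals. Deviations of same-numbered libraries correlated at 0.0152 on CD and -0.00886 on HFD. With 2 libraries per group the deviations are mirror images, so these correlations cannot decide on a pairing.

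Directions reversed for genes that depend on diet and for class II genes near 0. On CD alone the log2 difference was 0.54 for Dpm2, 0.35 for Napsa, 0.37 for Apoa1bp, 2.03 for Fdx1l and 1.25 for Ctbs. On HFD alone it was 0.23 for Rgs14, 0.77 for Tmem38b, 1.73 for Gcc1, 1.53 for Galnt9 and 2.77 for Nmrk1. Cd74 was at -0.00695 without a filter, -0.033 on CD alone and -0.037 to 0.109 without 1 library. H2-Ab1 was at -0.041 without a filter, -0.047 with the background covariate, -0.074 on CD alone and -0.0446 to 0.062 without 1 library. H2-Aa was at 0.068 with RLE factors, upper-quartile factors and DESeq2, 0.018 on CD alone, 0.094 with the GC offset and -0.127 to 0.022 without 1 library. H2-Eb1 was at 0.059 with RLE factors and DESeq2, 0.058 with upper-quartile factors, 0.050 on HFD alone and 0.079 with the GC offset. Genes under the floor of 3 counts in a population have fitted values that depth limits.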
